A study of Mus musculus with 5 samples.

Results

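Conventional Cd209a dendritic cells were examined in single-cell RNA sequencing data of the mouse aortic arch. The cells were chosen by their measured transcripts: H2-Ab1 above 2 on the deposited natural log scale, a value above 0 for at least 2 of the 5 genes Cd209a, Flt3, Klrd1, Napsa and H2-Oa, C1qa at most 2, no Cd3e and no Cd79a, fewer than 2 of the 4 genes of mature dendritic cells (Ccr7, Ccl22, Fscn1 and Tbc1d4) and fewer than 3 of the 5 cycling genes (Mki67, Top2a, Birc5, Ube2c and Cenpf). These conditions held for 260 of 18260 cells. They came from 5 libraries of live cells sorted without a marker of cell type. Control libraries, of which there were 2, came from Oasl1+/+Apoe-/- mice and contributed 53 and 42 of these cells. The other 3 libraries carried the label Oasl1-/-Apoe-/- and contributed 62, 48 and 55. All mice lacked apolipoprotein E, which makes them prone to atherosclerosis, and had received normal chow for 28 weeks. Per the study's methods, the Oasl1 allele had been made by removal of the promoter and exon 2 in the germline, on a C57BL/6 background. The aortas of several mice were pooled (n = 6 is given, without saying whether per library or per group), so animals cannot be told apart within a library, and the spread between libraries may be partly technical.

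Conventional dendritic cells take up antigen, load peptides onto MHC class II molecules and present them to T cells. They develop from bone marrow precursors under the growth factor receptor Flt3 and are commonly divided into a cross-presenting subset, cDC1, which depends on the transcription factors IRF8 and BATF3, and a larger subset, cDC2, with C-type lectins such as CD209a and CLEC10A. In arteries they lie in the intima and adventitia, and their number grows with the lesion. Type I interferons act on them through transcription factors that bind interferon-stimulated response elements in the promoters of antiviral genes. OASL1 is a member of the interferon-induced oligoadenylate synthetase family without synthetase activity and is known to hold back translation of Irf7 mRNA.

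The selected cells were clearly separated by H2-Ab1, the class II beta chain, but less so by the dendritic cell genes. No selected cell had an H2-Ab1 value between 2 and 2.5, the lowest was 2.65 and the median was 5.17, and 1 cell that met the other conditions lay just outside, at 1.58. Of the 5 dendritic cell genes, 83 selected cells had exactly 2, 94 had 3, 64 had 4 and 19 had 5, while 167 cells that met the other conditions had 1 and stayed outside. C1qa, a complement gene of macrophages, was at 0 in 238 selected cells and above 0 in 22, and 34 cells were left out for it, 1 of them between 2 and 2.5. The conditions on lymphocyte, mature and cycling genes alone left out 18, 80 and 12 cells, and 76 selected cells had 1 of the 4 mature genes.

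Because these genes chose the cells, their levels are given as a description only. Napsa, an aspartic protease, was found in 92.5% and 97.6% of control cells and in 95.2%, 95.8% and 98.2% of cells from the libraries labelled Oasl1-/-Apoe-/-. Cd209a, the lectin that names the cells, was found in 73.6% and 73.8% against 48.4%, 50% and 56.4%. So 14 and 11 control cells had no Cd209a transcript against 32, 24 and 24 cells, and the groups did not overlap. Klrd1, a lectin-like receptor shared with natural killer cells, was found in 62.3% and 61.9% against 75.8%, 75% and 61.8%, and Flt3 in 15.1% and 31.0% against 33.9%, 29.2% and 29.1%, with overlap for both. H2-Oa, which with H2-Ob restrains peptide loading by H2-DM, was found in 60.4% and 61.9% against 46.8%, 62.5% and 54.5%. The most common combination, Cd209a with Klrd1, Napsa and H2-Oa, was held by 42 cells, while Klrd1 with Napsa alone was held by 2 and 2 cells of the control libraries and by 11, 6 and 7 of the others. Among 1829 macrophages (C1qa above 2, Csf1r above 0 and fewer than 2 of the 5 dendritic cell genes), Cd209a was found in 0.273% and Klrd1 in 0.219%, at a median of 5922 unique molecular identifiers (UMIs) per cell against 5186.5 in the dendritic cells, but both selections use these genes.

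Beside the genes of the rule, the cells shared a wider profile. Values are given as CP10K, the mean over cells of UMIs per 10000 UMIs of the cell. Against all other cells of the aorta (folds with 0.1 CP10K added), Ifitm1, an interferon-induced membrane protein, stood at 23.5 CP10K and 46.5-fold higher, Il1r2, the decoy receptor for interleukin 1, at 8.10 CP10K and 19.9-fold higher, the lectin Clec10a at 2.5 CP10K and 18.4-fold higher, and Cd7 at 2.85 CP10K and 16.4-fold higher. The phospholipase-like Plbd1 (14.9-fold), the orphan receptor Gpr171 (13.8-fold), the class II chaperone gene H2-DMb2 (13.2-fold), Plac8 (12.9-fold), Klrb1b (12.7-fold) and Ifitm6 (12.2-fold) followed. Not all of these were highest in the selected cells: monocytes had Plac8 at 59.5 against 24.3 CP10K and Ifitm6 at 5.25 against 2.55 CP10K, and mature dendritic cells had H2-DMb2 at 5.05 against 3.06 CP10K. Plac8 was itself among the genes that chose the monocytes. Mature dendritic cells (113 cells) had Ifitm1 at 15.5 and Il1r2 at 6.10 CP10K, and macrophages had them at 0.0872 and 0.260 CP10K. The label describes the groups unequally. A Cd209a UMI was found in 155 of 260 cells, namely 39 of 53 and 31 of 42 control cells against 30 of 62, 24 of 48 and 31 of 55. Cells without one still had Ifitm1 at 19.4, Napsa at 6.94 and H2-Ab1 at 166 CP10K.

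Markers of other cells were mostly low, but not all were absent. Nkg7 of natural killer and T cells, S100a8 and S100a9 of neutrophils, Cd207 of Langerhans cells and Ighd of B cells were at 0 in all 5 libraries. Ighm of B cells was found in 26.4% to 53.2% of the cells of a library and Epcam of Langerhans cells in 3.23% to 13.2%. Acta2 of smooth muscle was found in 60.4% and 50% of control cells against 32.3%, 29.2% and 38.2% of the others, without overlap. Its level overlapped, at 2.11 and 6.27 against 3.64, 2.90 and 4.14 CP10K. The part of RNA carried over from smooth muscle cells was not tested. None of the tested plasmacytoid (8), natural killer and T cell (2), B cell (4), neutrophil (2), smooth muscle (9), fibroblast (8), endothelial (7) or Langerhans cell (2) markers passed the test between the genotypes described below. Siglech of plasmacytoid cells was at 0 in 4 libraries and found in 4.84% of the cells of replicate 1 labelled Oasl1-/-Apoe-/-. Summed smooth muscle markers, from the most abundant cells of the tissue, ranged from 3.88 to 14.5 CP10K and summed macrophage markers from 12.9 to 31.5 CP10K, with overlap between the groups in both. The libraries held 3212 to 4338 cells and 16959976 to 19813039 recovered UMIs each. The dendritic cells contributed 189203 to 346717 UMIs per library, with median UMIs per cell of 4742 and 4603 against 5049, 5413 and 5846, and median mitochondrial shares of 1.54% to 1.82%. Of 18094 distinct cell barcodes, 165 occurred in more than 1 library. Oasl1 itself had 2 and 0 UMIs in control dendritic cells and 4, 6 and 11 in the others (log2 difference 1.85 ± 0.57 (SE), limma adjusted p = 0.121). The 3′ end of the transcript lies outside the deleted part, so these reads do not check the genotype, and the libraries are called by their labels. Apoe had 3 and 0 against 2, 0 and 1 UMIs.

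Dendritic cells made up a larger share of all cells and a smaller share of leukocytes in the libraries labelled Oasl1-/-Apoe-/-. They were 1.30% (Wilson 95% confidence interval, counting error only, 0.995 to 1.70) and 0.968% (0.717 to 1.31) of all cells in the control libraries and 1.82% (1.42 to 2.33), 1.49% (1.13 to 1.98) and 1.70% (1.31 to 2.21) in the others. The mean was 1.13% ± 0.234 (SD, n = 2) against 1.67% ± 0.166 (SD, n = 3), and the groups did not overlap (exact two-sided permutation test, p = 0.1, the smallest that 2 against 3 libraries allow, adjusted over 3 share comparisons p = 0.2). Among cells with a UMI of Ptprc, the pan-leukocyte gene CD45, dendritic cells with such a UMI were 9.09% and 6.41% against 6.30%, 4.44% and 5.21%, which is the opposite direction (exact permutation p = 0.2). The difference in the share of all cells, 0.539 percentage points, was 0.231 when each cell was thinned to 1000 UMIs, with overlap between the groups, and turned to -0.887 when smooth muscle cells were left out of the denominator. The direction of the share thus depended on the denominator, and no comparison of shares in this design could pass 0.05.

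**Figure D1:**
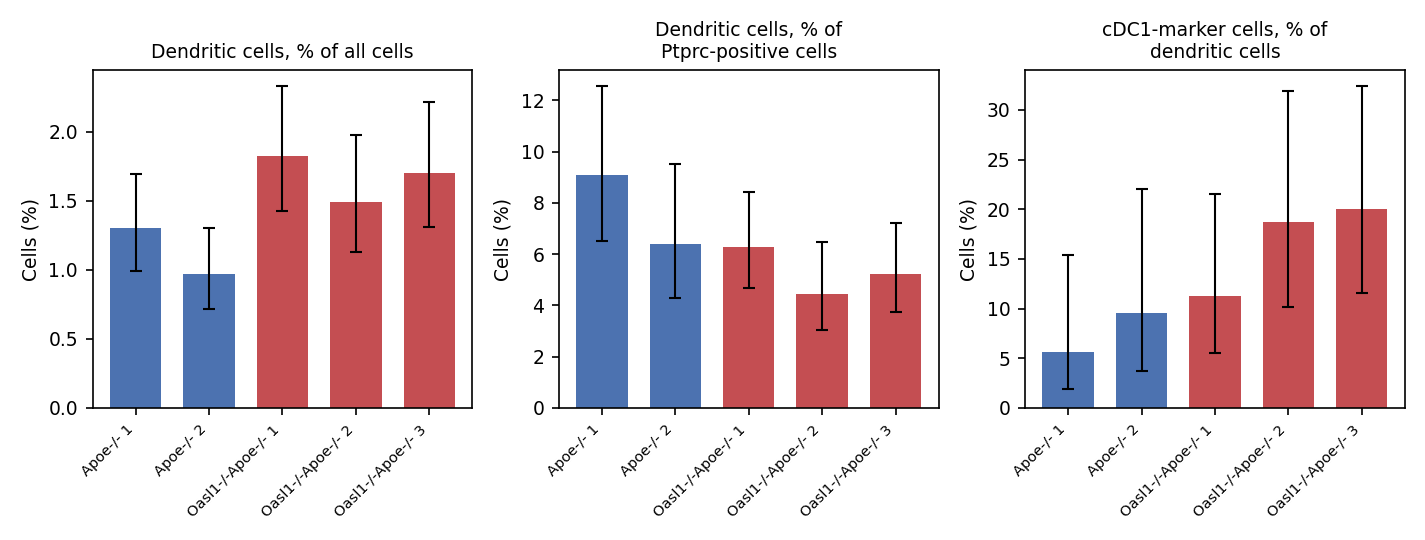
Bars give, for each of the 5 libraries, the dendritic cells as a percentage of all cells, the dendritic cells with Ptprc as a percentage of cells with Ptprc, and the cells with cDC1 markers as a percentage of dendritic cells; whiskers are Wilson 95% intervals. The first share was higher in the 3 libraries labelled Oasl1-/-Apoe-/- (red, 1.49% to 1.82%) than in the 2 control libraries (blue, 0.968% and 1.30%), and the second was lower in all 3.

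The main comparison asked which genes differed between the genotypes within these cells, with the library as the replicate. Interferon-stimulated genes were higher and many ribosomal protein genes were lower in the libraries labelled Oasl1-/-Apoe-/-, while no class II gene outside the rule passed the test. Of 7504 genes tested (mean of at least 0.05 CP10K), 92 rose (1.23%) and 43 fell (0.573%) at an adjusted p under 0.05 (limma on log2(mean CP10K + 0.05), Benjamini-Hochberg adjustment). All 135 had libraries that did not overlap between the groups, which was also true of 1237 tested genes in the higher (16.5%) and 787 in the lower direction (10.5%). None was a gene of the rule. The median log2 difference of all tested genes was 0.08, and with each library centred on that median 76 genes rose and 56 fell.

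The strongest evidence was for Ifi27l2a (ENSMUSG00000079017, chr12:103442167-103443680), a small interferon-induced mitochondrial protein. It was at 3.37 and 4.90 CP10K in the control libraries and at 18.2, 23.5 and 24.6 CP10K in the others, a 5.35-fold difference of the means (log2 difference 2.42 ± 0.16 (SE), adjusted p = 2.32e-09). The share of cells with an Ifi27l2a UMI went with it, at 39.6% and 42.9% against 90.3%, 91.7% and 90.9%, so it was found in nearly all dendritic cells of the second group. Ly6a, the stem cell antigen Sca-1, which interferon induces in myeloid cells, was at 1.93 and 0.733 against 7.10, 9.30 and 12.4 CP10K (log2 difference 2.92 ± 0.27, adjusted p = 4.90e-07). Ms4a4c, a four-span membrane protein of myeloid cells, was at 1.32 and 1.5 against 5.88, 5.23 and 7.14 CP10K (2.06 ± 0.19, adjusted p = 4.90e-07). For each of these 3 genes the groups did not overlap.

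The largest log2 differences belonged to genes that were near 0 in the control cells, for which the value depends on the added 0.05 CP10K and is no bound on the fold. Ifi213, a nuclear DNA-binding protein of the PYHIN family, had 1 and 0 UMIs against 11, 12 and 28 (log2 difference 3.37). Usp18, which removes ISG15 from proteins and dampens the interferon receptor, had 3 and 0 against 47, 33 and 17 UMIs (3.31). Ifi44, an interferon-induced cytoplasmic protein, had no UMI in either control library and 14, 12 and 9 in the others (3.14). The same group held Oas1a (5 and 1 against 29, 30 and 46 UMIs, 3.06), Eef1akmt2, a lysine methyltransferase (0 and 0 against 15, 6 and 12, 3.02), Ifi209 (3 and 3 against 35, 29 and 32, 2.93) and Phf11a (1 and 3 against 23, 23 and 24, 2.84). Cxcl9, a chemokine for activated T cells, stood apart from them. It had 0 and 0 against 10, 2 and 66 UMIs, found in 6.45%, 4.17% and 5.45% of cells, so 1 library held most of its reads (log2 difference 3.13 ± 0.79, adjusted p = 0.0392, which was 0.414 without replicate 3 labelled Oasl1-/-Apoe-/-). Reads of near-identical family members, such as Ifi204 to Ifi213, Phf11a, Phf11b and Phf11d or Oas1a and Oas1g, may have been split between copies, and their separate levels are uncertain.

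**Figure D2:**
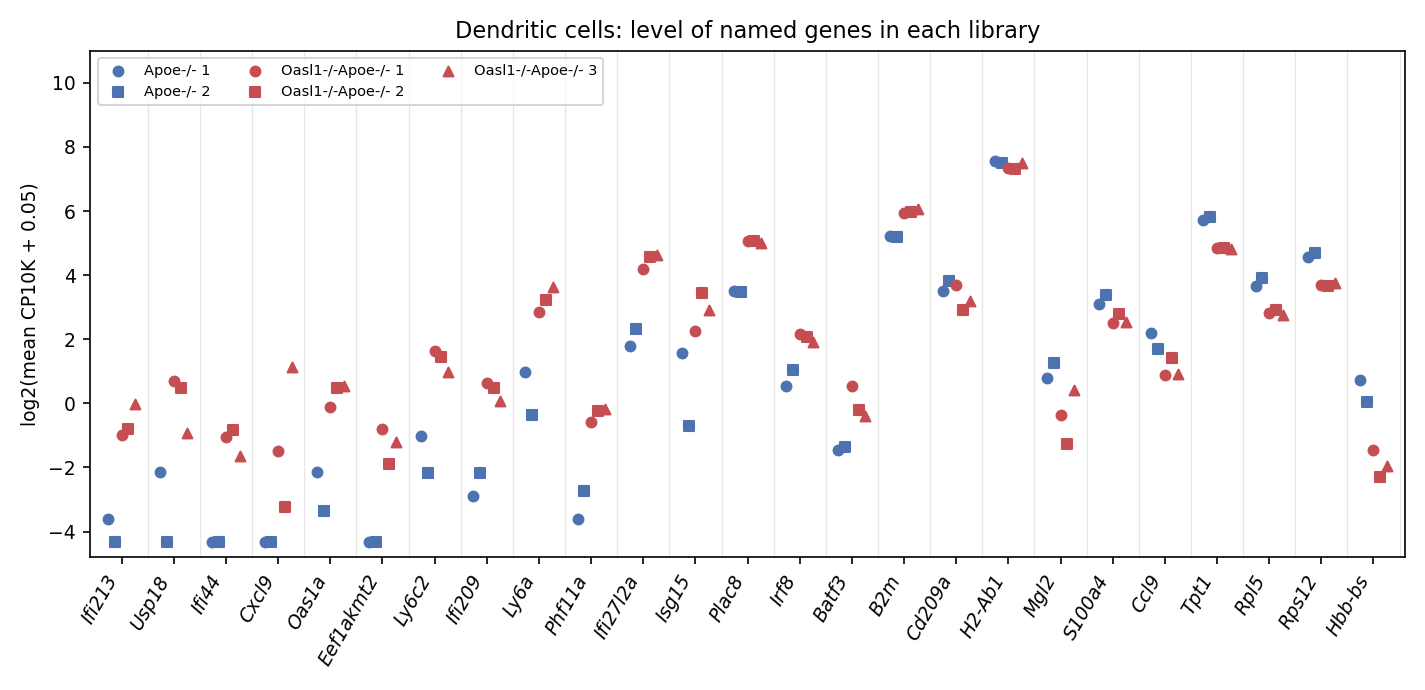
Points give the level of 25 named genes in the dendritic cells of each library, as log2(mean CP10K + 0.05); blue points are the 2 control and red points the 3 libraries labelled Oasl1-/-Apoe-/-, and genes with no UMI lie at the lowest position. Red points lie above blue ones from Ifi213 to B2m, the groups overlap for Cd209a and H2-Ab1, which the rule uses, and red points lie below blue ones from Mgl2 to Hbb-bs.

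Promoters of interferon-responsive genes are shown because 26 of the 92 genes that rose were in the type I interferon or interferon gamma list. Each window is the RefSeq sequence (GRCm38.p6) from 250 bases before to 50 bases after the start of the gene, 5′ to 3′ on the strand of the gene, and capitals mark matches to the core of the interferon-stimulated response element, which is GAAA, any 2 bases and GAAA again, searched on both strands. The windows are Isg15 at chr4:156200769-156201068 on the minus strand, Oas1a at chr5:120907476-120907775 on the minus strand, Ifi213 at chr1:173599223-173599522 on the minus strand and Phf11b at chr14:59341281-59341580 on the minus strand.

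Isg15: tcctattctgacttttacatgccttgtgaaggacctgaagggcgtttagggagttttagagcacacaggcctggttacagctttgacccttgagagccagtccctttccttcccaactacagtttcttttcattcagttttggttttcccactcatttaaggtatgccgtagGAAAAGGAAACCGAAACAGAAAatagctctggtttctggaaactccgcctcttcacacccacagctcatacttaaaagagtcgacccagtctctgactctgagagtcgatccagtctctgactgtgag
Oas1a: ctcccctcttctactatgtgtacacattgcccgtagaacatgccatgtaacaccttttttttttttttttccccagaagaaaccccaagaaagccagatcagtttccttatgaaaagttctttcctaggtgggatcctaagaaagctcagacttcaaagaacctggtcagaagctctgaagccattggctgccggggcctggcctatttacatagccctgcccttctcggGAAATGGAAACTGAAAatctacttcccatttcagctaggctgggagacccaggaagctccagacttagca
Ifi213: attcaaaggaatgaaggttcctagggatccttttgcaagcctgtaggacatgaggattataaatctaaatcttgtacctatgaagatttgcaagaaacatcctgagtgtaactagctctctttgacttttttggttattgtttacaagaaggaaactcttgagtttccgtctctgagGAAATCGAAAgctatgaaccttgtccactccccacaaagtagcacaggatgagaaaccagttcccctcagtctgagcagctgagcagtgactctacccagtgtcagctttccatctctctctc
Phf11b: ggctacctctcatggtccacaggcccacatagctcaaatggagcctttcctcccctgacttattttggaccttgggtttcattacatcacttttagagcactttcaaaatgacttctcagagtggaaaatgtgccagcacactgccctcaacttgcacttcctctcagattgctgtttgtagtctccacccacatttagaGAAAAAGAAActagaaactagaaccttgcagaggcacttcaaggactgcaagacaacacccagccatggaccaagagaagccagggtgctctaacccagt

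Isg15 held 3 overlapping matches, the first starting 78 bases before the gene start, Oas1a 2 overlapping ones from 20 bases before it, Ifi213 1 at 73 bases and Phf11b 1 at 50 bases. Across all 27025 promoters of the table, 3.99% held a match, and across the 5944 matched promoters of tested genes 4.44%. Of the type I interferon list, 32 of 44 genes had a promoter in the table and 20 of these held a match (62.5%). The share was 25.6% (20 of 78) among genes that rose and 10.0% (3 of 30) among those that fell. Irf7, Ifi44, Oasl2, Xaf1 and Phf11d rose and held no match in these windows. A match is a description of the letters and not a measured binding site.

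The type I interferon list described the shift as a group. It was chosen with earlier results of these data known, so its counts are a description and no independent support. Of its 44 tested members 23 rose and none fell, the remaining 21 also had positive log2 differences, and the list's median was 1.85 beside 0.08 for all genes. Summed over the list, the level was 57.1 and 46.0 CP10K in the control libraries and 120, 139 and 140 CP10K in the others. Among effectors, Isg15, the ubiquitin-like modifier, was at 2.90 and 0.562 against 4.77, 10.8 and 7.41 CP10K (log2 difference 2.44 ± 0.39, adjusted p = 0.000462). Bst2, tetherin, which holds budding virus at the cell surface, was at 2.09 and 2.10 against 5.73, 5.30 and 5.26 CP10K (1.35 ± 0.17, adjusted p = 3.72e-05). Both separated the groups, Isg15 with a wide spread within each and Bst2 with almost none. Among regulators, Irf7, which amplifies the response, was at 0.697 and 0.378 against 2.57, 1.41 and 2.35 CP10K (1.89 ± 0.30, adjusted p = 0.000462), whereas Stat2 (1.51, adjusted p = 0.194) and Irf9 (1.06, adjusted p = 0.253) did not pass. The receptor genes Ifnar1 (-0.28, adjusted p = 0.798) and Ifnar2 (-0.13, adjusted p = 0.916) overlapped between the groups. Ifnb1 itself had 8 UMIs in control replicate 1, at 0.373 CP10K and in 1.89% of its cells, and none in the other 4 libraries.

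The higher level was spread over many cells. Per cell, the summed list had a median of 42.6 and 37.8 CP10K in the control libraries and of 85.7, 115 and 110 CP10K in the others. The 90th percentile of the control cells was 96.7 CP10K, and 11.3% and 9.52% of their cells lay above it, against 46.8%, 60.4% and 54.5%. The lowest cell was at 25.7, 24.0 and 21.6 CP10K in the libraries labelled Oasl1-/-Apoe-/- and at 4.26 and 0 CP10K in the control libraries. A few cells reached far higher, up to 434, 675 and 783 CP10K against 277 and 170. Of the interferon gamma targets, 3 of 15 tested rose, Gbp2, Ifi47 and Cxcl9, with a list median of 1.48. Gbp2, a guanylate-binding protein, had no UMI in the control cells and 0.256, 0.119 and 0.806 CP10K in the others (adjusted p = 0.0151). Cxcl10 overlapped between the groups, at 0.817 and 0.0474 against 0.629, 2.46 and 1.30 CP10K.

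**Figure D3:**
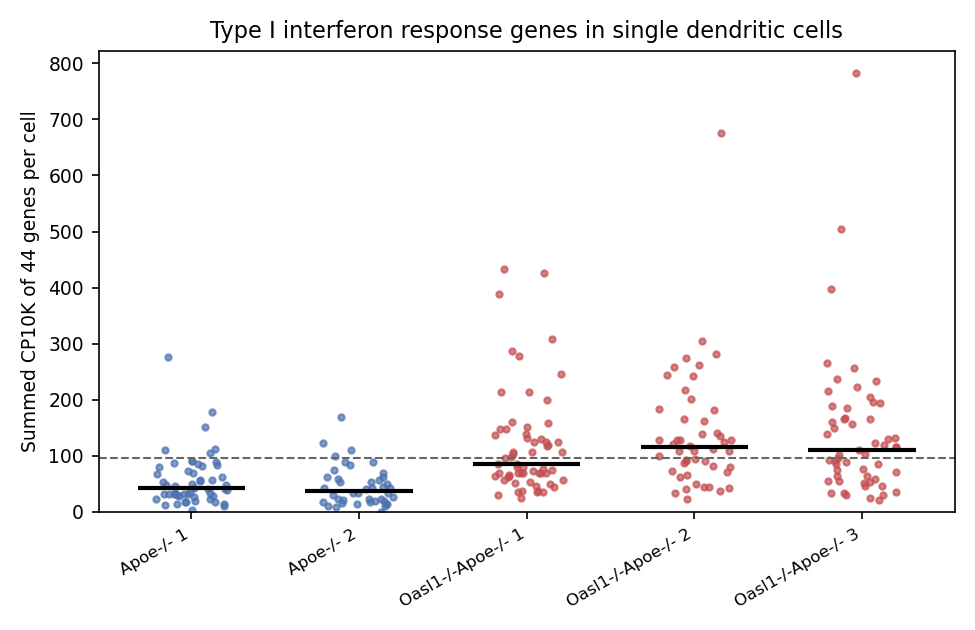
Each point is 1 dendritic cell, and its height is the sum of CP10K over the 44 measured type I interferon genes; black lines are library medians and the dashed line is the 90th percentile of the control cells, 96.7 CP10K. About 1 cell in 10 lies above the line in the 2 control libraries and 46.8% to 60.4% in the 3 libraries labelled Oasl1-/-Apoe-/-.

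Irf8 and Batf3, transcription factors of the cDC1 subset, were higher, and for Irf8 the difference was not seen in cells with a Cd209a transcript. Irf8 (chr8:120736358-120756694) was at 1.40 and 2.02 CP10K against 4.47, 4.15 and 3.75 CP10K (log2 difference 1.27 ± 0.20, adjusted p = 0.000462). Batf3 was at 0.318 and 0.339 against 1.42, 0.825 and 0.714 CP10K (1.40 ± 0.34, adjusted p = 0.0297), and its adjusted p lay between 0.059 and 0.3 when any 1 library was left out. Neither gene overlapped between the groups. In the 155 cells with a Cd209a UMI, a set chosen after the data were seen, Irf8 was at 0.672 and 1.32 against 1.05, 0.606 and 0.956 CP10K (log2 difference -0.14, adjusted p = 0.967). In the cells without one (14 and 11 against 32, 24 and 24 cells), it was at 3.43 and 4.0 against 7.68, 7.70 and 7.36 CP10K. Among cells with at least 3 of the 5 dendritic cell genes, the log2 difference was 0.94 and did not pass (adjusted p = 0.165). Ifi27l2a was higher in both sets of cells. In cells with a Cd209a UMI it was at 3.34 and 6.13 against 21.6, 25.6 and 27.4 CP10K, and in cells without one at 3.48 and 1.44 against 15, 21.4 and 21 CP10K.

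Other cDC1 genes were sparse. Of 14 tested members of the list 3 rose, Irf8, Batf3 and Ifi205, of which Ifi205 is itself interferon-induced, and the median was 0.67. The dead-cell receptor Clec9a was found in 0% and 2.38% of cells against 8.06%, 16.7% and 9.09%, and the chemokine receptor Xcr1 in 5.66% and 0% against 3.23%, 12.5% and 5.45%. Cells with at least 2 of 6 cDC1 markers (Xcr1, Clec9a, Itgae, Wdfy4, Cadm1 and Tlr3) were 5.66% (Wilson interval 1.94 to 15.4) and 9.52% (3.77 to 22.1) of the dendritic cells against 11.3% (5.58 to 21.5), 18.8% (10.2 to 31.9) and 20% (11.6 to 32.4), from 3, 4, 7, 9 and 11 cells (exact permutation p = 0.2). The groups did not overlap, but the intervals did, and after thinning to 1000 UMIs no cell had 2 of these markers. Id2, another factor of this lineage, did not pass (5.14 and 4.45 against 3.86, 5.74 and 4.90 CP10K, adjusted p = 0.997), nor did Zbtb46, which marks conventional dendritic cells (-0.14, adjusted p = 0.950). Of 21 tested genes of dendritic cell development 2 rose, Irf8 and Batf3, with 10 positive. Flt3, a gene of the rule, was at 0.441 and 0.708 against 0.999, 0.779 and 0.682 CP10K.

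Genes of the cDC2 subset leaned the other way. Of 22 tested members 2 fell and none rose, 15 had negative log2 differences and the median was -0.35. Mgl2, the galactose-type lectin CD301b, was at 1.67 and 2.36 CP10K against 0.731, 0.365 and 1.29 (log2 difference -1.42 ± 0.35, adjusted p = 0.0340), and its adjusted p lay above 0.05 without 4 of the 5 libraries in turn. S100a4, a calcium-binding protein of motile cells, was at 8.48 and 10.5 against 5.66, 6.87 and 5.80 CP10K (-0.63 ± 0.15, adjusted p = 0.0328), and leaving out any 1 of 4 libraries took it to between 0.061 and 0.368. In both genes the 3 libraries labelled Oasl1-/-Apoe-/- were the 3 lowest. The lower levels were not particular to these cells. The log2 difference of Mgl2 was -1.14 in macrophages and -0.57 in mature dendritic cells, and monocytes had it at 0 CP10K. That of S100a4 was -0.44 in macrophages, -0.42 in monocytes and -0.63 in mature dendritic cells. Over the 15 list members tested in macrophages the median was 0.18. The neighbouring lectin Clec10a, at 3.80 and 2.88 against 2.62, 1.74 and 1.44 CP10K, did not pass (-0.80, adjusted p = 0.0957). Irf4, the factor of this subset, was at 0.214 and 0.321 against 0.173, 0.180 and 0.194 CP10K (adjusted p = 0.792). In cells with a Cd209a UMI, the cDC2 median was -0.14 and the cDC1 median 0.07.

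Plac8, Ly6c2 and Fcgr1, genes that monocytes also express, rose. Their log2 differences were positive in other cells too, at 1.78, 2.10 and 0.87 in macrophages. In mature dendritic cells they were 1.06, 1.89 and 0.88, where Ly6c2 was near 0 in both groups (means 0 and 0.143 CP10K). Plac8 (chr5:100553725-100572245), a cysteine-rich protein of monocytes and plasmacytoid cells that interferon induces, was at 11.4 and 11 CP10K against 33.4, 33.2 and 32.4 CP10K, a 2.95-fold difference with almost no spread within the groups (log2 difference 1.55 ± 0.11, adjusted p = 2.97e-09). Ly6c2, the Ly6C antigen of inflammatory monocytes, was at 0.447 and 0.173 against 3.05, 2.68 and 1.90 CP10K (2.94 ± 0.32, adjusted p = 5.09e-06) and found in 7.55% and 4.76% against 29.0%, 25% and 29.1% of cells. The high-affinity IgG receptor Fcgr1 was at 0.523 and 0.298 against 1.28, 1.20 and 1.13 CP10K (1.49 ± 0.31, adjusted p = 0.00668). In Cd209a-bearing cells Ly6c2 was at 0.607 and 0.235 against 3.65, 3.55 and 2.58 CP10K, and in cells without a Cd209a UMI it was at 0 and 0 against 2.5, 1.81 and 1.03 CP10K.

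The monocyte marker list was read beside this. Of its 8 tested members 2 rose, Plac8 and Ly6c2, 5 were positive and 3 negative (Fn1 -0.79, Gsr -0.66 and Msrb1 -0.26, none past the threshold). Its 14 genes summed to 21.1 and 19.9 CP10K against 46.0, 46.0 and 43.1 CP10K, of which Plac8 alone made up 11.4 and 11 against 33.4, 33.2 and 32.4 CP10K. Chil3, another monocyte gene, was at 0 in 4 of 5 libraries, and Vcan and F13a1 were under 0.10 CP10K in all. Ccr2 did not pass (log2 difference 0.66, adjusted p = 0.355). Among the 103 cells gated as monocytes, which the rule for dendritic cells excludes by H2-Ab1, Ly6c2 had means of 8.03 and 23.3 CP10K and Plac8 of 38.1 and 73.8 CP10K in the 2 groups. Ly6c2 and Plac8, with Chil3, Vcan and F13a1, also chose these monocytes, so their levels there are a description only. Of 10 tested macrophage markers 1 rose, Fcgr1. C1qb, C1qc, Adgre1 and Mrc1 were under 1 CP10K in all libraries, and Mertk was at 0 in 4. Whether cells of monocyte origin had a part in these differences was not tested.

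Some class I genes rose, while no class II gene outside the rule passed in these cells, which were selected on the class II chain H2-Ab1. The classes were not tested against each other. B2m, the light chain of class I, was at 37.1 and 36.7 CP10K against 61.5, 62.5 and 66.5 CP10K (log2 difference 0.78 ± 0.09, adjusted p = 9.38e-06). H2-D1, a classical class I heavy chain, was at 21.9 and 15.2 against 26.8, 24.5 and 29.2 CP10K (0.55 ± 0.13, adjusted p = 0.0263), and H2-K1 just missed the threshold, at 7.90 and 8.19 against 12.9, 11.1 and 10.7 CP10K (adjusted p = 0.0547). The nonclassical H2-Q7 (1.53, adjusted p = 0.000462) and H2-T22 (1.34, adjusted p = 0.00491) and the immunoproteasome subunit Psmb8 (0.70, adjusted p = 0.0174) rose too. Of 21 tested class I genes 5 rose and none fell, with 18 positive and a median of 0.57, and the list summed to 99.0 and 93.8 against 144, 146 and 155 CP10K. In macrophages, which were more numerous, 16 of these 21 rose and 1 fell, with a median of 0.73. There 419 of all 8057 tested genes rose and 347 fell. Tap2 (-0.11) and Calr (-0.32) overlapped between the groups. Reads of the class I heavy chains may be divided among near-identical copies.

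No class II gene passed. Of 12 tested genes outside the rule 9 were positive and the median was 0.09, next to 0.08 for all genes. Cd74, the invariant chain that guides class II molecules, was at 402 and 364 CP10K against 391, 382 and 413 (log2 difference 0.05 ± 0.06, adjusted p = 0.830). H2-Aa, the alpha chain, was at 203 and 191 against 187, 169 and 198 CP10K (-0.09 ± 0.07, adjusted p = 0.678). H2-Eb1 was at 149 and 133 against 112, 109 and 132 CP10K (-0.26 ± 0.08, adjusted p = 0.134), where the 3 lower libraries did not overlap the 2 higher ones. Ciita, the class II transactivator, was at 0.596 and 0.910 against 0.970, 0.894 and 0.584 CP10K.

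In macrophages of the same libraries these chains differed between the genotypes, and the difference between the cell types was itself tested. On the per-library difference of log2 levels between dendritic cells and macrophages, 15 of 8006 genes passed (0.187%), 8 higher and 7 lower, and H2-Ab1, which the rule uses, is given no weight among them. Cd74 was at 124 and 133 CP10K in macrophages of the control libraries and at 205, 209 and 237 CP10K in the others, and the genotype difference was smaller in dendritic cells by 0.71 ± 0.07 (SE) on the log2 scale (adjusted p = 3.83e-05). H2-Eb1 rose from 33.2 and 32 to 46.1, 47.1 and 55.7 CP10K in macrophages (difference between the types -0.86 ± 0.08, adjusted p = 2.44e-05), and H2-Aa from 47.6 and 51.8 to 64.2, 66.6 and 75.5 CP10K (-0.56 ± 0.08, adjusted p = 0.00424). Dendritic cells, which were selected on H2-Ab1 while macrophages were not, stood above macrophages in each library for all 3 chains. Ifitm3, a membrane protein that blocks viral entry, rose in dendritic cells from 29.6 and 27.2 to 40.2, 44.9 and 45.3 CP10K but started in macrophages from 3.15 and 2.97 and reached 13, 13.5 and 15.3 CP10K (-1.56 ± 0.12, adjusted p = 2.51e-06). Irf8 differed in the other direction, with 2.53 and 3.08 against 3.29, 2.67 and 3.17 CP10K in macrophages (1.15 ± 0.20, adjusted p = 0.0246). In macrophages, 419 of all 8057 tested genes rose and 347 fell. These calls came from 1829 cells against 260 dendritic cells, so counts of the 2 types are not like for like. Of the 44 type I interferon genes, 39 rose in macrophages with a median of 1.49. Ifitm3 and Ly6a of that list were 2 of the 15 genes that differed between the types. Against monocytes, of which each library held 16 to 23, 0 of 7778 genes passed in limma, with 464 at an unadjusted p under 0.05.

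**Figure D4:**
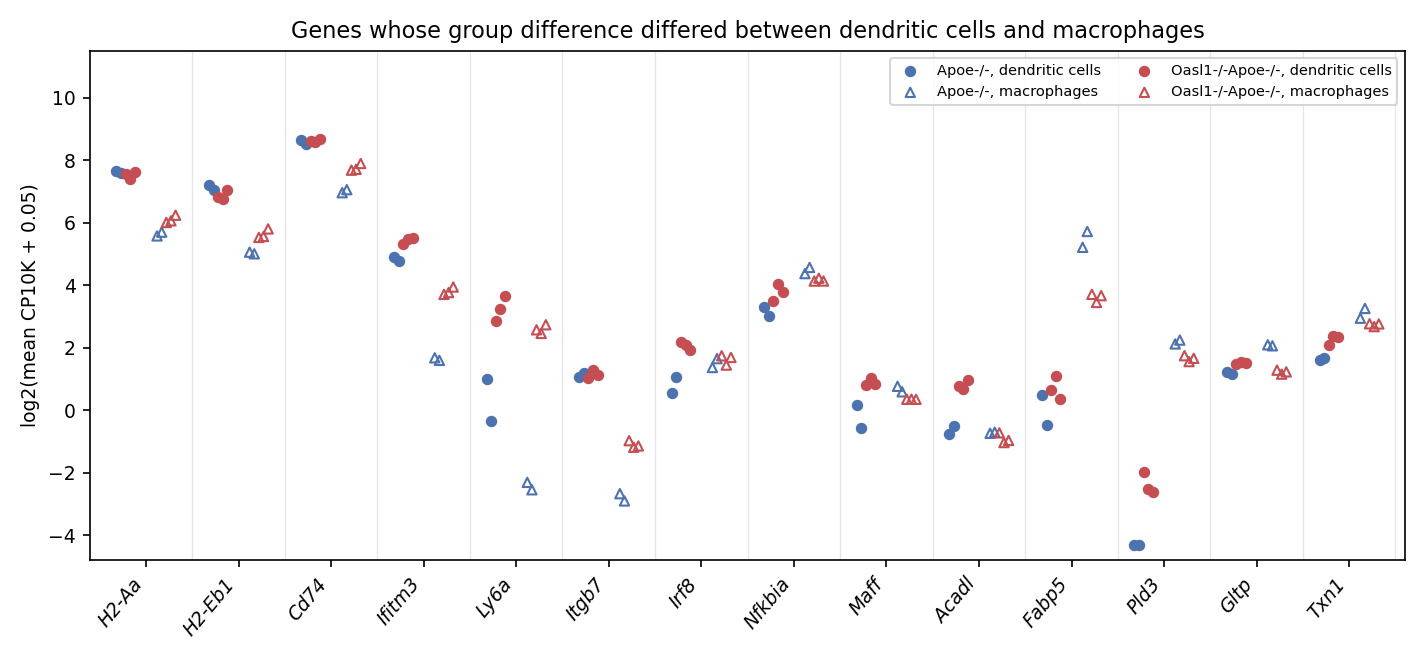
Filled circles give dendritic cells and open triangles macrophages of the same libraries, as log2(mean CP10K + 0.05), for the 14 genes outside the gates whose genotype difference differed between the types; blue marks the 2 control and red the 3 libraries labelled Oasl1-/-Apoe-/-. For H2-Aa, H2-Eb1 and Cd74 the red triangles lie above the blue ones while the circles of both colours lie together or, for H2-Eb1, red lies slightly lower.

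Few costimulation, cytokine and maturation genes passed. Tnfsf9, the ligand of the T cell receptor 4-1BB, was the 1 of 16 costimulation genes that rose, at 1.35 and 0.506 against 2.70, 3.50 and 1.86 CP10K (log2 difference 1.59 ± 0.31, adjusted p = 0.00447, and 0.277 without control replicate 2, 0.124 without replicate 1 and 0.107 without replicate 2 labelled Oasl1-/-Apoe-/-). Cd86 was at 3.23 and 2.94 against 3.17, 3.53 and 3.37 CP10K and Cd80 at 0.494 and 0.491 against 0.424, 0.641 and 0.569 CP10K, both with overlap, while Cd40 did not overlap and missed the threshold (1.38, adjusted p = 0.0650). Of 17 genes of mature migratory dendritic cells outside the rule none passed (median 0.11), nor did any of 21 pattern recognition receptors (median 0.03), 11 cytokine genes (median 0.21) or 19 lipid-handling genes (median -0.03). Il1b, the most abundant cytokine of the list, was at 25.4 and 26.9 against 24.4, 39.1 and 29.2 CP10K. Il12b, a subunit of the interleukin for T helper 1 cells, had no UMI in any library, which leaves an expected count of up to about 3 UMIs in each (upper 95% limit). Clock genes (6 tested) and cell cycle genes (13 tested) had none past the threshold.

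Chemokines moved in both directions. Of 14 tested outside the rule 2 rose, Cxcl9 and Ccl3, and 1 fell, Ccl9. Ccl3, an inflammatory chemokine for myeloid cells, was at 2.23 and 1.35 against 3.83, 2.84 and 3.64 CP10K (log2 difference 0.96 ± 0.22, adjusted p = 0.0229), and its relative Ccl9 was at 4.57 and 3.17 against 1.80, 2.62 and 1.84 CP10K (-0.87 ± 0.22, adjusted p = 0.0384). Both lie in the chemokine cluster of chromosome 11 and separated the groups in opposite directions. Rgs1, which damps signalling from chemokine receptors, was the 1 of 21 receptor and migration genes that rose, at 11.4 and 5.28 against 12.9, 14.2 and 13.1 CP10K (0.78 ± 0.20, adjusted p = 0.0392), and control replicate 2 stood lowest: without that library the log2 difference was 0.23 and the adjusted p 0.637.

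Of 21 tested chaperone genes 3 rose and none fell. Hspa8, the constitutive chaperone Hsc70, was at 29.8 and 23.4 CP10K against 48.5, 53.2 and 46.1 CP10K (log2 difference 0.90 ± 0.11, adjusted p = 1.79e-05). Dnaja1, its cochaperone, was at 2.75 and 2.32 against 4.17, 4.93 and 4.02 CP10K (adjusted p = 0.0248) and the mitochondrial chaperonin Hspd1 at 0.902 and 0.721 against 1.41, 2.05 and 1.78 CP10K (adjusted p = 0.0297). Of the list, 17 were positive and 4 negative, with a median of 0.53. The stress-inducible Hspa1a overlapped, at 9.40 and 5.37 against 12.4, 14.6 and 8.59 CP10K. Of 24 immediate early genes 1 rose, Nfkbia, the inhibitor of NF-kB (0.62 ± 0.15, adjusted p = 0.0297; median 0.32), and of 70 nuclear oxidative phosphorylation genes 2 rose, Cycs (1.24, adjusted p = 0.000393) and Ndufa13 (0.71, adjusted p = 0.0479), with a median of 0.19. Of 12 genes of the mitochondrial genome 1 fell, mt-Nd2 (-0.79, adjusted p = 0.0343).

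The genes that fell were mostly of the translation machinery. Of 81 tested cytosolic ribosomal protein genes, a list made from gene names after the values were seen, 33 fell and none rose, and they were 33 of the 43 genes that fell. Their median was -0.36, and they summed to 2430 and 2633 CP10K against 2031, 1936 and 1985 CP10K. Rps12 was at 23.6 and 25.8 against 12.8, 12.7 and 13.3 CP10K (log2 difference -0.93 ± 0.12, adjusted p = 2.80e-05) and Rpl5 at 12.7 and 15.1 against 7.02, 7.55 and 6.71 CP10K (-0.96 ± 0.14, adjusted p = 0.000162). Tpt1, a translationally controlled protein, was at 52.2 and 56.1 against 28.5, 28.6 and 28.1 CP10K (-0.93 ± 0.09, adjusted p = 2.24e-06), the elongation factor Eef1a1 at 79.6 and 75.8 against 49.5, 49.0 and 46.6 CP10K (-0.68 ± 0.09, adjusted p = 2.80e-05), and the ribosomal scaffold Rack1 at 16.1 and 16.7 against 10.2, 9.23 and 7.85 CP10K (-0.85 ± 0.14, adjusted p = 0.000462). Tpt1 was lower in Cd209a-bearing cells too, at 50.8 and 54.2 against 29.3, 30.2 and 29.4 CP10K. Such genes have many processed copies in the genome, which may take part of their reads. In macrophages 29 of 81 fell and 2 rose, with a median of -0.14, where 347 of all 8057 tested genes fell and 419 rose.

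Hbb-bs, Gm43301 and Hist1h1c were further genes that fell. Hbb-bs, beta globin, was at 1.61 and 0.979 against 0.313, 0.155 and 0.206 CP10K (log2 difference -2.29 ± 0.38, adjusted p = 0.000632), and it was the 1 gene that fell of 4 tested red blood cell genes, with all 4 negative. Globin was lower in macrophages as well, where 4 of 4 fell beside 347 of all 8057 tested genes. Gm43301, an annotated locus without a named product, had 9 and 6 UMIs against none in the other 3 libraries, where it is listed at 0 in every cell of the tissue. It lies at chr5:122581469-122584853, on the chromosome of the targeted Oasl1 gene (chr5:114923240-114937915). Oas1a (chr5:120896256-120907521) and Oasl2 (promoter window chr5:114896684-114896983), which rose, lie there too. Any part of sequence around the changed Oasl1 gene in these levels was not tested. Hist1h1c, a linker histone, was at 2.26 and 2.0 against 0.955, 1.27 and 0.675 CP10K (-1.14 ± 0.27, adjusted p = 0.0248). The part of free RNA from lysed cells in the globin values was not tested.

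**Figure D5:**
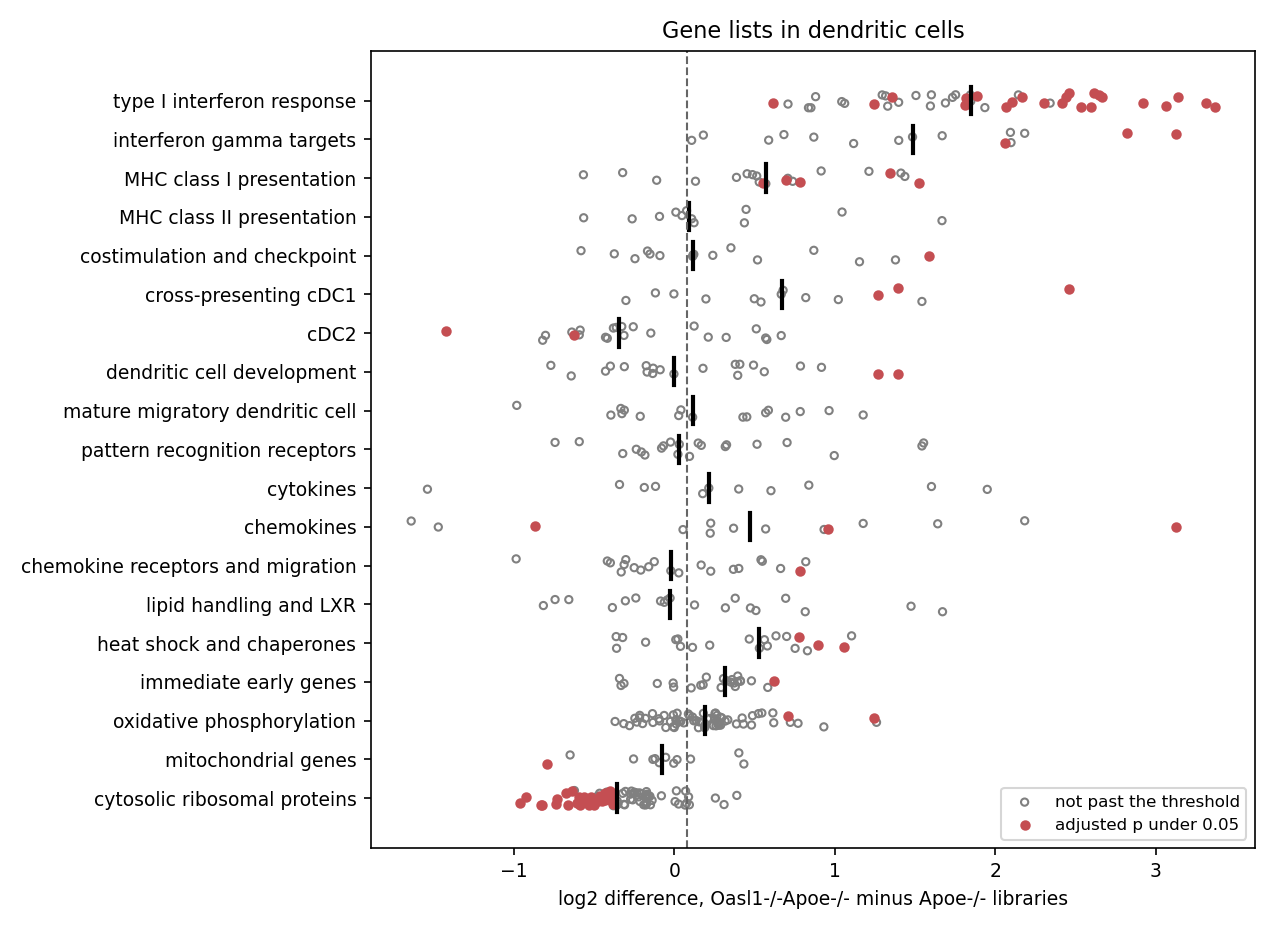
Each point is 1 tested gene of a list in the dendritic cells, placed by its log2 difference between the libraries labelled Oasl1-/-Apoe-/- and the control libraries; filled red points passed an adjusted p under 0.05, black bars are list medians and the dashed line is the median of all tested genes (0.08). The type I interferon list lies wholly to the right (23 of 44 past the threshold), and the ribosomal list lies mostly to the left (33 of 81 past the threshold).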

How the data were processed

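Aortic cells were sequenced with the 10x 3′ chemistry (v2 kit) and, per the labels and the study's methods, mapped to mm10 with Cell Ranger 3.1.0, filtered on genes and mitochondrial share with Seurat 4.0.3 and cleared of doublets with DoubletFinder, hence doublets were not called again. In the files deposited by the authors each value is ln (a natural log) of 1 plus the UMIs per 10000 of that cell. Dividing the unlogged values by the smallest of each cell gave whole numbers (100% within 0.01), taken as UMIs. Genes found in few cells of a library are mostly listed at 0 there.

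The members and gene lists were chosen with earlier results of these data known. CP10K was averaged over the cells of each library, and log2(mean + 0.05), a scale that understates changes of low genes, was tested with limma 3.58.1 (lmFit, eBayes with trend; R 4.3.3), with Benjamini-Hochberg adjustment over all genes with a mean of at least 0.05 CP10K. For the comparison of cell types, the per-library difference of log2 levels was tested in the same way. Macrophages needed C1qa above 2, Csf1r above 0 and fewer than 2 of the 5 dendritic cell genes; monocytes at least 2 of Ly6c2, Chil3, Plac8, Vcan and F13a1, Csf1r above 0 and H2-Ab1 and C1qa at most 2. Shares were compared by exact two-sided permutation over the 10 splits of 5 libraries, with Wilson 95% intervals. Named genes were drawn from the genes of the rule, Oasl1 and Apoe, the 10 largest log2 differences past the threshold in each direction without overlap, up to 6 members past the threshold per list (otherwise the 3 highest), the 15 genes highest against other cells, and up to 5 genes per direction differing from macrophages. Any others were named after their values were seen. Coordinates are from GENCODE mouse release M21 on GRCm38 (16324 of 16498 symbols matched) and promoters from RefSeq. The fit of dendritic cells was also run on simulated summed UMIs with the same dispersion for all genes. That run cannot give error rates under the real spread between cells and libraries. Alternatives were other pseudocounts, filters, scalings, gates, a voom fit on summed UMIs, a replicate block and leaving out each library. Deviations of libraries with the same replicate number correlated at -0.0196 and -0.0449. With 2 control libraries, whose deviations mirror each other, this cannot exclude a pairing by replicate number. Some genes of the lists are not reported here by name.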

Additional observations from a re-analysis of the deposited data

Results flagged for a closer look

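The 14 genes below were singled out because their genotype difference differed between dendritic cells and macrophages of the same libraries in limma. Values are the log2 difference in dendritic cells minus that in macrophages. Lower in dendritic cells were Ifitm3 (-1.56), H2-Eb1 (-0.86), Cd74 (-0.71) and H2-Aa (-0.56), described above. Ly6a (-2.10, adjusted p = 0.00226) rose in both types, from 0.152 and 0.121 to 5.89, 5.44 and 6.60 CP10K in macrophages. Itgb7, an integrin chain for homing to mucosa (-1.66, adjusted p = 0.0446), was at 2.06 and 2.21 against 2.0, 2.40 and 2.15 CP10K in dendritic cells and at 0.107 and 0.0836 against 0.459, 0.390 and 0.403 CP10K in macrophages.

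Higher in dendritic cells were Irf8 (1.15), described above, and 7 further genes. Fabp5, a fatty acid-binding protein (2.55, adjusted p = 0.000999), was at 1.35 and 0.670 against 1.53, 2.09 and 1.22 CP10K in dendritic cells, with overlap, and at 37.0 and 52.6 against 13, 10.8 and 12.6 CP10K in macrophages. Pld3, a lysosomal exonuclease (2.49, adjusted p = 0.00226), had no UMI in control dendritic cells against 8, 3 and 5, and its levels in macrophages were 4.30 and 4.68 against 3.30, 2.89 and 3.11 CP10K. The lipid-transfer gene Gltp (1.18, adjusted p = 0.0167), the NF-kB inhibitor gene Nfkbia (0.93, adjusted p = 0.0167) and thioredoxin Txn1 (0.99, adjusted p = 0.0232) had negative log2 differences in macrophages (-0.86, -0.31 and -0.37) and positive ones in dendritic cells (0.32, 0.62 and 0.62), of which only that of Nfkbia passed the test of dendritic cells. The small Maf factor Maff (1.42, adjusted p = 0.0446) was at 1.08 and 0.622 against 1.68, 2.0 and 1.73 CP10K in dendritic cells, and the mitochondrial dehydrogenase Acadl (1.63, adjusted p = 0.0446) at 0.537 and 0.658 against 1.67, 1.56 and 1.89 CP10K.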

How the results depend on the processing

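With 2 and 3 libraries, few cells and many genes near the detection limit, calls of single genes are less secure than those of the whole comparison. The count of 135 genes past the threshold in dendritic cells became 71 to 190 when 1 library was left out (71 without replicate 1, 81 without replicate 2 and 76 without replicate 3 labelled Oasl1-/-Apoe-/-, 82 without control replicate 2 and 190 without control replicate 1). In cells with a Cd209a UMI, an alternative chosen after seeing the data, the count was 78, and without cells with cDC1 markers, chosen likewise, 111. The other alternatives gave 123 to 182. For the difference from macrophages, 15 genes in the main comparison became 33 with a pseudocount of 0.2, 1 with no filter, 24 with summed UMIs, 5 with at least 3 dendritic cell genes and 7 to 128 when 1 library was left out, 128 without control replicate 1. For the difference from monocytes the count of 0 became 2 with a pseudocount of 0.2, 1 with summed UMIs, 1 with median centring, 3 with at least 3 dendritic cell genes, 5 without any C1qa UMI and 0 to 10 when 1 library was left out. The cause was not tested.

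A replicate block on the numbers of the labels left 46 genes in dendritic cells, all among the 135. It left 7 for the difference from macrophages and 17 for that from monocytes. Whether these numbers pair the libraries is not known.

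The difference in the share of all cells, 0.539 percentage points, was 0.273 with at least 3 dendritic cell genes, 0.231 after thinning to 1000 UMIs and -0.887 without smooth muscle cells in the denominator, and 0.374 to 0.705 when 1 library was left out. The share of cells with cDC1 markers differed by 0 after thinning and by 7.16 to 11.8 when 1 library was left out. The Ptprc-based share kept its direction, at -3.77 to -1.10. Among named genes past the threshold in the main comparison or in the alternative, Irf8 turned to -0.14 in cells with a Cd209a UMI. Acta2, of smooth muscle, turned to 0.88 without any C1qa UMI, and no other such gene changed sign. Sign changes of list medians, and of genes past the threshold in neither, were not counted.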

Other observations

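Ighm, the constant region of the immunoglobulin M heavy chain, was found in 26.4% and 38.1% of control dendritic cells and in 53.2%, 52.1% and 43.6% of those labelled Oasl1-/-Apoe-/-, although the rule excludes any cell with Cd79a. Igkc, the kappa light chain, was found in at most 4.76% of cells of a library, Cd79b in at most 1.89% and Ms4a1 in at most 1.89%. Among macrophages Ighm was found in 22.1% and among smooth muscle cells in 1.08%, at a median of 4914 UMIs per cell. Its level in the dendritic cells overlapped between the groups, at 0.704 and 1.73 against 2.11, 1.32 and 1.10 CP10K.

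Epcam was found in 13.2% and 9.52% of control dendritic cells and in 3.23%, 4.17% and 7.27% of the others, while Cd207 had no UMI in any library. Ccr7, a gene of the rule, was found in 13.2% and 14.3% against 8.06%, 6.25% and 7.27% of cells.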
